A study of Homo sapiens with 42 samples.

Results

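Untreated cells of 2 acute myeloid leukaemia (AML) lines, MOLM-13 and its sister line MOLM-14, were compared across all genes. The comparison used 6 libraries of the 30 that had columns in the deposited table and of the 42 that the labels describe: 3 of MOLM-13 and 3 of MOLM-14, all labelled wild type (WT), all given the solvent DMSO alone and all collected at 72 hours. The members were chosen by line and treatment, not by any measured value. The study profiled a panel of AML lines by stranded total RNA sequencing after decitabine (100 nM at each of its doses), a cytidine analogue that inhibits DNA methylation, or after DMSO. Cells were seeded at 100000 per mL, per the labels' protocols. Decitabine-treated libraries of the pair and DMSO libraries of SKM-1, KG-1 and OCI-AML3 serve here only to show where the pair differs. The series' design text does not list MOLM-14, whose identity therefore rests on the labels of its samples.

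MOLM-13 and MOLM-14 were established from the blood of the same patient with AML, and have been grown as separate cultures since. Both carry a KMT2A-MLLT3 fusion, which drives HOXA and MEIS1 expression, and an internal tandem duplication of the receptor tyrosine kinase gene FLT3. Each line is 1 culture lineage, and the labels do not say whether the 3 libraries of a line came from separate cultures, so the p-values speak of spread among libraries that may be technical repeats.

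MOLM-13 libraries held an estimated 55496481 to 75039260 reads in genes, and MOLM-14 libraries 2017970 to 17301269. MOLM-14 replicate 2 was the shallowest, so that 1 read was worth 10.1 normalised counts there, against 0.279 to 0.385 in MOLM-13. In KG-1 and OCI-AML3, too, replicate 2 was the shallowest DMSO library. SKM-1 libraries were as deep as those of MOLM-13, and KG-1 and OCI-AML3 libraries were shallower, like those of MOLM-14. Line and library set can therefore not be told apart within the pair. The difference between SKM-1 and the mean of KG-1 and OCI-AML3 is the same split in other lines. It is given beside some results and not all. Values are normalised counts, that is, estimated counts divided by DESeq2 factors, and differences are MOLM-13 minus MOLM-14 on the log2(value + 1) scale, which understates the change of low genes.

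MOLM-13 differed from MOLM-14 at nearly as many genes as not. Of 16211 genes tested, 7363 (45.4%) passed an adjusted p of 0.05 with limma, 3837 (23.7%) of them higher and 3526 (21.8%) lower in MOLM-13. Of them, 1734 genes (10.7% of those tested) were at least 2-fold higher and 2161 (13.3%) at least 2-fold lower. The 3 libraries of one line lay wholly above or below those of the other at 9723 genes (60.0%). Across genes, libraries correlated with r of 0.991 to 0.992 within MOLM-13, 0.917 to 0.973 within MOLM-14 and 0.788 to 0.851 between the lines. These correlations are over genes, which are not independent, and MOLM-14 replicate 2 gave the lowest of them in each case.

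The pair nevertheless had the smallest share of called genes among the 10 pairs that the 5 lines form. Over 20217 genes expressed in the 15 DMSO libraries, 39.0% were called between MOLM-13 and MOLM-14, against 41.1% between MOLM-14 and OCI-AML3, 43.5% between MOLM-13 and SKM-1, and 46.1%, 47.8%, 51.1%, 52.1%, 52.6%, 53.5% and 53.6% in the other 7 pairs. The median size of the log2 difference was 0.63 between the sister lines and 0.61 between MOLM-13 and SKM-1, which share a deep library set, so by this measure the sister lines were not the closest pair. Of the 7363 called genes, 94.3% differed in the same direction between decitabine-treated MOLM-13 and MOLM-14, which are other libraries of the same lines, against 79.2% of all tested genes. The same direction was seen for 64.2% of them in SKM-1 against KG-1 and OCI-AML3, and for 60.3% of all tested genes; that contrast called 55.8% of all genes. There 44.8% were called the same way, 22.3% were called the opposite way and 32.9% were not called.

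Of the 12 protein-coding genes with the largest differences toward MOLM-14, 6 encode transcription factors known from embryonic development: UNCX, FOXD1, NR2F1, ZIC1, BARX1 and DLX5. These 6 were high in MOLM-14 and at or near 0 in MOLM-13. They were picked by the size of the difference and by libraries that do not overlap. All 6 passed the filter through MOLM-14 alone, which fixes their direction, and no test of the class was made. UNCX, a homeobox gene of the spine and kidney, had no read in any MOLM-13 library, against 2135, 3097 and 1553 normalised counts in MOLM-14 libraries. That makes it at least 7090-fold lower in MOLM-13, with a floor of 3 reads over the line's 3 libraries (0.319 normalised counts in MOLM-13 and 1.69 in MOLM-14). FOXD1, a forkhead factor of kidney stroma, was also at 0 in all MOLM-13 libraries, against 1172, 1226 and 1153 in MOLM-14 libraries, at least 3710-fold lower. For both genes, libraries that do not overlap were a condition of being named.

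NR2F1, an orphan nuclear receptor of neural development, stood at 0.329, 0.794 and 0 normalised counts in MOLM-13 libraries, against 1359, 1836 and 1451 in MOLM-14 libraries. BARX1, a homeobox factor of teeth and stomach, had 3.32, 1.67 and 3.01 in MOLM-13 libraries, against 2573, 3442 and 2008 in MOLM-14 libraries (log2 difference −9.51 ± 0.34 (SE), adjusted p = 7.43e-17, limma). DLX5, a homeobox factor of bone and limb, had 0, 0.843 and 0 in MOLM-13 libraries, against 734, 765 and 607 in MOLM-14 libraries. At these 3 genes too, libraries that do not overlap were a condition of being named. Of the 6 factors, UNCX was also high in OCI-AML3 (2367, 3911 and 2228) and BARX1 was intermediate in SKM-1 (429 to 488) and OCI-AML3 (149 to 215). FOXD1, NR2F1, ZIC1 and DLX5 stayed at 110 or below in every library of SKM-1, KG-1 and OCI-AML3.

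Other leading genes of MOLM-14 included genes known from neural and muscle tissue. Those named here also passed the filter through MOLM-14 alone, which fixes their direction. MAP1B, a microtubule-associated protein of neurons, had 0.370, 0.594 and 0 normalised counts in MOLM-13 libraries, against 3337, 3665 and 2877 in MOLM-14 libraries. It rested on about 3 MOLM-13 reads, and the ratio of MOLM-14 to MOLM-13 was 10323 with a 95% exact Poisson interval of 3532 to 50056, which covers counting error only. BEX1, a small adaptor protein of neural tissue on the X chromosome, had 1.16, 0.619 and 0 in MOLM-13 libraries, against 3528, 4032 and 3187 in MOLM-14 libraries (log2 difference −11.20 ± 0.33, adjusted p = 1.43e-18, limma). FLNC, the filamin of muscle, was at 0.560 to 0.931 in MOLM-13 libraries and at 1281 to 1627 in MOLM-14 libraries. SOBP and DOCK9, an activator of the small GTPase CDC42, had log2 differences of −9.22 and −8.92. DOCK9 varied within MOLM-14, with 2653, 418 and 2155, the lowest value in the shallow replicate 2, against 1.52 to 2.17 in MOLM-13.

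**Figure D1:**
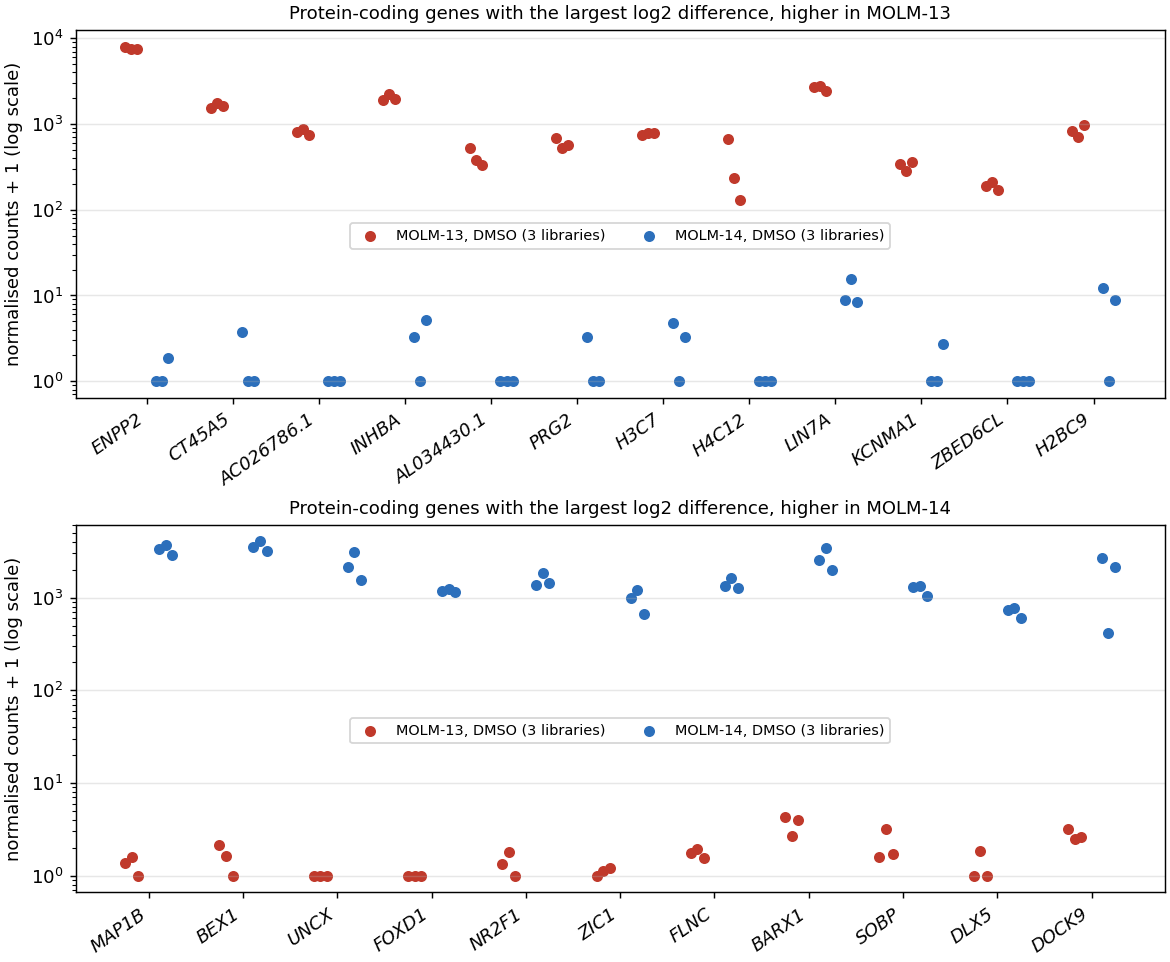
Normalised counts plus 1 (log axis) of protein-coding genes with the largest log2 difference in each direction, 1 point per DMSO library, MOLM-13 left of MOLM-14 for each gene. Genes were picked so that the lines do not overlap. H4C12 spreads from 129 to 665 within MOLM-13 and DOCK9 from 418 to 2653 within MOLM-14.

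Relatives of the leading factors were lower in MOLM-13 or did not pass, and several were expressed in both lines. These families were chosen after the values of ZIC1, DLX5 and HOXC4 had been seen, and members near 0 in MOLM-13 could be tested only because MOLM-14 was high, so their counts are a description. The ZIC genes described here, zinc-finger factors of the neural plate, lie in neighbouring pairs on chromosomes 3 (ZIC1, ZIC4) and 13 (ZIC2, ZIC5), and all 4 were lower in MOLM-13 in the fit. ZIC1 had 0, 0.124 and 0.224 normalised counts in MOLM-13 libraries, against 992, 1205 and 658 in MOLM-14 libraries (log2 difference −9.70 ± 0.85, adjusted p = 1.55e-09, limma). ZIC2 had 42.9, 54.3 and 55.3 in MOLM-13 libraries, against 1164, 1452 and 1414 in MOLM-14 libraries. ZIC5 had 0, 0.310 and 0 in MOLM-13 libraries, against 215, 241 and 211 in MOLM-14 libraries. ZIC4 had none in MOLM-13, against 92.2, 53 and 72.1 in MOLM-14 libraries. Of these 4, ZIC2 was thus the one clearly transcribed in both lines.

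All 6 DLX genes were tested, and 5 were lower in MOLM-13. The DLX5 and DLX6 pair on chromosome 7 was close to 0 in MOLM-13, DLX6 with 1.60, 0 and 0 against 253, 253 and 230 in MOLM-14 libraries. DLX1 on chromosome 2 was expressed in both lines, with 167, 133 and 134 in MOLM-13 libraries and 490, 606 and 431 in MOLM-14 libraries (log2 difference −1.80 ± 0.54, adjusted p = 0.0081, limma). Its neighbour DLX2 did not pass, with 98.9, 89.1 and 79.0 against 126, 114 and 103 (−0.36 ± 0.52, adjusted p = 0.602). Of the sine oculis homeobox genes, which act in eye, muscle and kidney, SIX2 and SIX4 were lower in MOLM-13. SIX2 was at 0 in all MOLM-13 libraries, against 185, 111 and 162 in MOLM-14 libraries, at least 479-fold lower.

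Of the paired-box genes PAX1 to PAX9, PAX5 and PAX6 were high enough to test, and both passed the filter through MOLM-14 alone, which fixes their direction. PAX5, the factor that commits cells to the B lineage, had 0.912, 3.99 and 1.49 normalised counts in MOLM-13 libraries, against 1191, 1015 and 1064 in MOLM-14 libraries (log2 difference −8.56 ± 0.89, adjusted p = 2.9e-08, limma). Of the other 6 tested lymphoid markers, none was among those higher in MOLM-14: IL7R and RAG1 were higher in MOLM-13 and 4 did not pass. In the HOXC cluster, HOXC4 had no read in MOLM-13, against 275, 241 and 298 in MOLM-14 libraries, at least 851-fold lower. HOXC6 (2.26 to 4.63 against 118 to 147) and HOXC8 (0 against 36.5 to 40.6) were lower as well, while HOXC11, HOXC12 and HOXC13 had no read in either line.

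**Figure D2:**
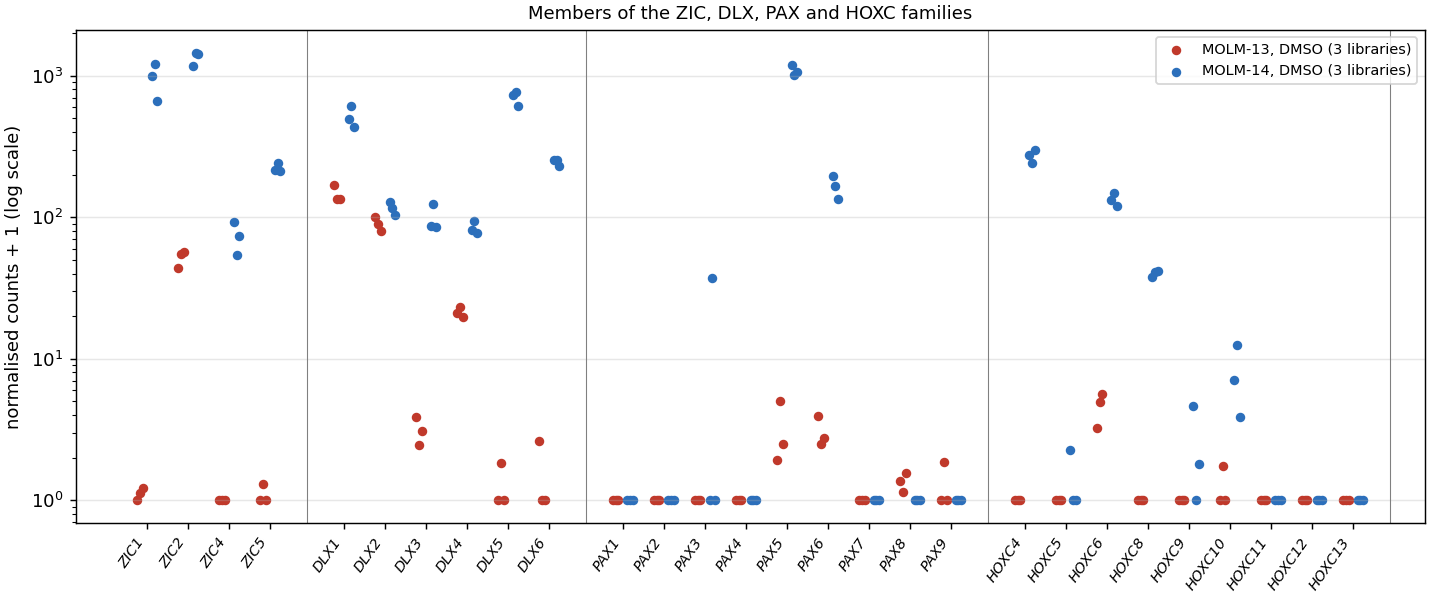
Normalised counts plus 1 (log axis) of members of the ZIC, DLX, PAX and HOXC families, 1 point per DMSO library, MOLM-13 left of MOLM-14 for each gene. MOLM-14 stands above MOLM-13 at each called member, HOXC11, HOXC12 and HOXC13 are at 0 in both lines, and DLX2 was not called.

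MOLM-13 had its own set of strongly expressed genes that were near 0 in MOLM-14. Among the 12 protein-coding genes with the largest differences were genes of secreted proteins, a granule protein, a channel and histones. All but LIN7A and H2BC9 passed the filter through MOLM-13 alone, which fixes their direction. ENPP2, which encodes autotaxin, the secreted enzyme that makes lysophosphatidic acid, had 7918, 7535 and 7432 normalised counts in MOLM-13 libraries, against 0, 0 and 0.861 in MOLM-14 libraries. The ratio of MOLM-13 to MOLM-14 was 13581, with a 95% exact Poisson interval of 2438 to 536420 because it rests on 1 MOLM-14 read. INHBA, the subunit of the signalling protein activin A, had 1904, 2241 and 1935 in MOLM-13 libraries, against 2.30, 0 and 4.12 in MOLM-14 libraries (log2 difference 9.62 ± 0.72, adjusted p = 9.71e-11, limma). Both genes were high in MOLM-13 alone among the 5 lines: KG-1 had 138 to 151 for ENPP2, and no library of SKM-1, KG-1 or OCI-AML3 passed 31.5 for INHBA.

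PRG2, the major basic protein of eosinophil granules, had 680, 518 and 575 in MOLM-13 libraries, against 2.24, 0 and 0 in MOLM-14 libraries. LIN7A, a scaffold protein of cell polarity, had 2714, 2785 and 2408 in MOLM-13 libraries, against 7.90, 14.5 and 7.34 in MOLM-14 libraries. KCNMA1, a calcium-activated potassium channel, had 340, 280 and 361 in MOLM-13 libraries, against 0, 0 and 1.73 in MOLM-14 libraries. Libraries that do not overlap were a condition of naming these genes. PRG2 and LIN7A were also high in SKM-1 (373 to 523 and 2961 to 3211), and KCNMA1 was not (9.27 to 15.5). Of the other leading genes, AC026786.1 (734 to 866), AL034430.1 (329 to 521), ZBED6CL (168 to 208) and the histone H4 gene H4C12 had no read in MOLM-14. H4C12 varied within MOLM-13, with 665, 236 and 129, and AC026786.1 was present in SKM-1 (89.8 to 111) and at 0 in KG-1 and OCI-AML3, the same split of library sets.

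The cancer-testis gene CT45A5, normally silent outside the germline, had 1529, 1746 and 1621 normalised counts in MOLM-13 libraries, against 2.74, 0 and 0 in MOLM-14 libraries. CT45A1, CT45A3 and CT45A7 of the same X-linked cluster were higher in MOLM-13 too, at 42.4 to 189 against 0 to 3.08. These CT45 genes passed the filter through MOLM-13 alone, which fixes their direction. These copies are nearly identical in sequence, so the share of reads given to each is uncertain. No DMSO library of the other lines passed 19.2 at CT45A5. Of 40 cancer-testis and germline genes in a list chosen with earlier results of these data known, just 4 were expressed enough to test. Of these, 2 passed the filter through MOLM-13 alone, so nothing is read from the count. The 2 called ones, CT45A1 and TEX15, were higher in MOLM-13, TEX15 on chromosome 8 with 6022, 6226 and 5498 against 192, 113 and 141 in MOLM-14 libraries.

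Neighbouring histone genes of chromosome 6, H3C7 and H2BC9, were near 0 in MOLM-14 and high in each of the other 4 lines. H3C7, a replication-dependent histone H3 gene, had 745, 776 and 781 normalised counts in MOLM-13 libraries, against 3.78, 0 and 2.26 in MOLM-14 libraries, and stood at 584 to 880 in all 9 DMSO libraries of SKM-1, KG-1 and OCI-AML3. Its neighbour on the other strand, H2BC9, a histone H2B gene, had 821, 702 and 983 in MOLM-13 libraries, against 11.3, 0 and 7.90 in MOLM-14 libraries, and 314 to 1266 in the other lines. H3C6 nearby had 42.7, 52.5 and 40.5 in MOLM-13 libraries and none in MOLM-14, and was near 0 in SKM-1 and OCI-AML3 as well. The difference did not extend over the whole neighbourhood: H2AC8 (9837, 8534 and 11265 against 9126, 9633 and 5876) was not called, H4C8 differed by 0.89 and H1-3 by 1.40 on the log2 scale. H3C8 and H2BC10, also in this neighbourhood, were near 0 in both sister lines (1.55 to 8.98 in MOLM-13, 0 to 15.8 in MOLM-14), whereas SKM-1 and KG-1 means lay between 997 and 3073. Histone genes share much sequence, so the split of reads among copies is uncertain. Of 48 replication-dependent histone genes listed by name, 24 were found and 23 tested. H3C7 and H4C12 are not among these 23. Of the 23, 4 (17.4%) were higher and 7 (30.4%) lower in MOLM-13, against 23.7% and 21.8% of all genes (median log2 difference −0.27).

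The start regions of these neighbours, and of ZIC1 and UNCX from the MOLM-14 set, are printed to show what kind of promoter sits at genes that were on in one line and at or near 0 in the other. Each is 300 bases, from 250 before to 50 after the start, from RefSeq (GRCh38.p14), written 5′ to 3′ on the gene's own strand with every CG dinucleotide, the site of DNA methylation, in capitals.
H3C7 promoter (chr6:26250586-26250885, minus strand): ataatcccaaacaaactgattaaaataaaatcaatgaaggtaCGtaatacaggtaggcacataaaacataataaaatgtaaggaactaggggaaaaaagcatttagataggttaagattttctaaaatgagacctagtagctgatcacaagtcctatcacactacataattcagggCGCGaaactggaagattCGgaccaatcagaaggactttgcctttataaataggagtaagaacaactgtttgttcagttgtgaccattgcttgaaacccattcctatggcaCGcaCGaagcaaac
H2BC9 promoter (chr6:26251364-26251663, plus strand): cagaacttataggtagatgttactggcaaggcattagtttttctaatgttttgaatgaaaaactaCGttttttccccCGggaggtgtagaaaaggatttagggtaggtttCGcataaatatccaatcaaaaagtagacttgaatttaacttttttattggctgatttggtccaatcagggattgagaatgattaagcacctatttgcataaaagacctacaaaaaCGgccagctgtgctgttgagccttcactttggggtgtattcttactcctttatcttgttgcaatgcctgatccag
ZIC1 promoter (chr3:147409115-147409414, plus strand): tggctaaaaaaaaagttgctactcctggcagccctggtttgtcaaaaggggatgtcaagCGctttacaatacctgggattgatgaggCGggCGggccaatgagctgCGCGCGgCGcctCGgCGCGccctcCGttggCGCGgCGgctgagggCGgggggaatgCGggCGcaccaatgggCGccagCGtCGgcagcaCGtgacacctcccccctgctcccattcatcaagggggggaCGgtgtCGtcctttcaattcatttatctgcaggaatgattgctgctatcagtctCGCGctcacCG
UNCX promoter (chr7:1232622-1232921, plus strand): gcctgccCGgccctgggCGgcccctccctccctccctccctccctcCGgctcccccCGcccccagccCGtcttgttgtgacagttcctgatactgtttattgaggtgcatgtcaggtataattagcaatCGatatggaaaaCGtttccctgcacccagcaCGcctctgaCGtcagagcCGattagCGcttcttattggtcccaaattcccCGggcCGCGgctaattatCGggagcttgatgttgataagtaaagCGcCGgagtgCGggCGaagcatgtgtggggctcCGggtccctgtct
The H3C7 window holds 6 CG dinucleotides and the H2BC9 window 4, against 26 for ZIC1 and 20 for UNCX. Of 35116 such windows, 66.3% hold at least as many as H3C7, 75.5% as many as H2BC9, 30.1% as many as ZIC1 and 41.2% as many as UNCX. Over all windows the median was 14, and over the 6984 tested protein-coding genes with 1 window it was 27, above all 4 of these genes. It was 14.5 for 14 protein-coding genes on in MOLM-13 and off in MOLM-14, and 25.5 for 16 on in MOLM-14 and off in MOLM-13, by the rule that follows. Of the 24 leading protein-coding genes, 10 matched a single RefSeq window: INHBA held 1 CG, and FLNC and SOBP held 42 and 45. Methylation was not measured, and these counts describe the sequence alone.

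A stricter on and off rule, at least 50 normalised counts in all 3 libraries of one line and at most 3 reads in each library of the other, found 41 genes on in MOLM-13 and off in MOLM-14 (0.117% of 34948 genes with any value) and 80 genes on in MOLM-14 and off in MOLM-13 (0.229%). Among the 41 were 27 protein-coding genes and 2 processed pseudogenes, and among the 80 were 32 protein-coding genes and 29 processed pseudogenes. The off line was at exactly 0 for 16 and 47 of them. Library depth enters this rule, since 3 reads are worth more than 10 times as many normalised counts in MOLM-14 replicate 2 as in any MOLM-13 library. The split of SKM-1 from KG-1 and OCI-AML3 was the same for 3 of the 41 and 23 of the 80, of which 1 and 2 were protein-coding. The largest such cases were noncoding: RN7SKP176, a 7SK pseudogene, was at 0 in MOLM-13 and 79384 to 165344 in MOLM-14, and MIR4426 at 0 against 2956 to 3537, while SKM-1 libraries held none of either.

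Some genes were near 0 in MOLM-13 and expressed in each of the other 4 lines. With a mean under 3 in one line and at least 50 in each of the other 4, 23 genes were near 0 in MOLM-13, all protein-coding, and 3 were near 0 in MOLM-14. The same rule gave 28 genes in KG-1, 13 in SKM-1 and 7 in OCI-AML3, so the number in MOLM-13 is not particular to it. Depth enters the rule: 1 read in MOLM-14 replicate 2 alone gives a mean of 3.35, over the limit, so the counts of the sister lines cannot be compared. This rule was set after values had been seen, and its counts move strongly with the limit. ANPEP, the myeloid surface enzyme CD13, had 1.53, 1.23 and 0.970 normalised counts in MOLM-13 libraries, against 31.7, 76.8 and 55.2 in MOLM-14 libraries and means of 316 to 1400 in the other lines. MARCKS, an actin-linking protein kinase C substrate, had 0, 0.619 and 0.559 in MOLM-13 libraries, against 49.1, 90.5 and 50.8 in MOLM-14 libraries. TCF7L2, a transcription factor of Wnt signalling, had 1.91, 2.63 and 2.74 in MOLM-13 libraries, against 522, 536 and 605 in MOLM-14 libraries. The set also holds the endocytic adaptor DAB2, SH3PXD2A, PROX1 and 5 zinc-finger genes, ZNF85, ZNF614, ZNF577 and ZNF28 on chromosome 19 and ZNF197 on chromosome 3.

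The 3 genes near 0 in MOLM-14 were H3C7, FBXO21 and CROT; leaving out MOLM-14 replicate 2 left 1 gene and leaving out replicate 3 gave 5. FBXO21, a substrate receptor of a ubiquitin ligase, had 227, 267 and 272 normalised counts in MOLM-13 libraries, against 2.14, 0 and 2.26 in MOLM-14 libraries (log2 difference 6.88 ± 0.59, adjusted p = 1.13e-09, limma). CROT, a peroxisomal carnitine transferase, had 54.6, 42.9 and 54.0 in MOLM-13 libraries, against 1.95, 0 and 5.79 in MOLM-14 libraries. The groups did not overlap at either gene, but both were picked by these values and passed the filter through MOLM-13 alone.

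Genes of the shared leukaemia programme were present in both lines, but the HOXA cluster was used differently. FLT3 had 10858, 10999 and 11083 normalised counts in MOLM-13 libraries, against 6447, 6523 and 6712 in MOLM-14 libraries, and 0.74 ± 0.08 higher on the log2 scale (adjusted p = 6.98e-08, limma). Both lines stood above the other 3 lines at FLT3. MEIS1, the HOX cofactor, did not pass, with 2072, 1908 and 2279 in MOLM-13 libraries and 2194, 2959 and 1689 in MOLM-14 libraries. HOXA9 was higher in MOLM-13 (2393, 2549 and 2617 against 1172, 1434 and 1341; log2 difference 0.94 ± 0.09). HOXA10, its neighbour, was lower (466, 471 and 466 against 1229, 1011 and 1197; −1.29 ± 0.10), and HOXA13, at the 5′ end of the cluster, more so (364, 377 and 350 against 2895, 2787 and 3198; −3.02 ± 0.17). So within 1 cluster the direction differed by gene. OCI-AML3 was the other line with HOXA13 in that range, as the plot of markers by line shows.

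Of 16 tested HOX genes and cofactors, 2 were higher and 5 lower in MOLM-13, a share called of 43.8%, no more than the 45.4% of all genes, with a median log2 difference of −0.41 against 0.04 over all genes. Their median was −0.99 in SKM-1 against KG-1 and OCI-AML3. HOXB9 (0.385, 0.310 and 0 in MOLM-13 libraries, 42.8, 10.1 and 23.7 in MOLM-14 libraries) and the cofactor MEIS2 (200, 214 and 234 against 2480, 2311 and 2041) were the lowest. HOXB9 passed the filter through MOLM-14 alone, which fixes its direction. After decitabine the HOXB9 difference was −0.35 (interaction adjusted p = 0.0769, limma) and that of MEIS2 −3.03. Among 16 KMT2A complex genes and fusion partners, the share called was likewise 43.8%: 1 was higher, the kinase gene CDK9, and 6 were lower. KMT2A itself had 2261, 2258 and 2394 normalised counts in MOLM-13 libraries, against 3174, 18530 and 4139 in MOLM-14 libraries. The difference was 0.20 after decitabine. The call rests on MOLM-14 replicate 2: the log2 difference was −1.44 (adjusted p = 0.0098, limma) with it and −0.65 (adjusted p = 0.132) without it. MLLT3 did not pass (522, 649 and 583 against 881, 616 and 1066).

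**Figure D3:**
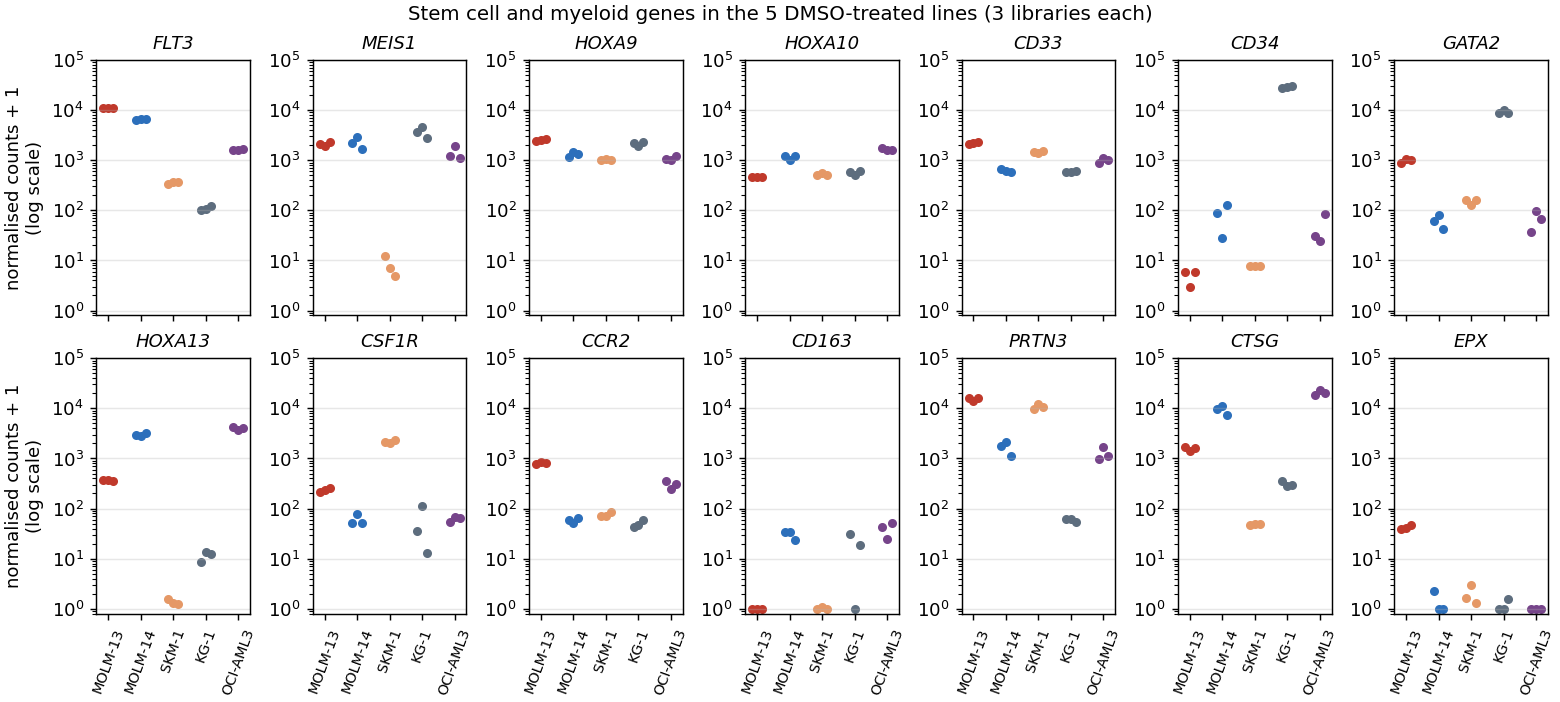
Normalised counts plus 1 (log axis) of 14 stem cell and myeloid genes in the DMSO libraries of MOLM-13, MOLM-14, SKM-1, KG-1 and OCI-AML3, 1 point per library. MEIS1 is level between the sister lines, GATA2, CCR2, PRTN3 and EPX stand higher in MOLM-13, and CD34, HOXA13, CD163 and CTSG stand higher in MOLM-14.

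Progenitor, granulocyte and monocyte markers were called in both directions. In bulk RNA, a smaller share of cells with a marker and less of its RNA per cell cannot be told apart. Of 16 tested progenitor markers, 8 (50.0%) were higher and 3 (18.8%) lower in MOLM-13, against 23.7% and 21.8% of all genes (median log2 difference 0.45 against 0.04). Their median was −0.73 in SKM-1 against KG-1 and OCI-AML3. GATA2, a transcription factor of stem cells, mast cells and basophils, had 875, 1061 and 1002 normalised counts in MOLM-13 libraries, against 61.3, 78.1 and 41.0 in MOLM-14 libraries (4.05 ± 0.24, adjusted p = 1.23e-12, limma). CD34, the stem cell surface marker, went the other way and was low in both lines, at 5, 1.90 and 4.90 in MOLM-13 libraries and 87.8, 27.5 and 128 in MOLM-14 libraries, far under the 27558 to 31071 of KG-1. It passed the filter through MOLM-14 alone, which fixes its direction. CD38 and LMO2 were higher in MOLM-13 by 1.30 and 1.04, and the stem cell factor MECOM was lower by a log2 difference of −1.13.

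Of 18 eosinophil, basophil and mast cell genes, 7 could be tested, 6 were higher in MOLM-13, and RNASE3 did not pass. EPX, CLC and PRG2 were high enough to test through MOLM-13 alone, which fixes their direction, so nothing is read from the count. EPX, eosinophil peroxidase, had 38.1, 39.3 and 45.5 normalised counts in MOLM-13 libraries, against 1.26, 0 and 0 in MOLM-14 libraries. MS4A3, a surface protein of basophils and granulocyte precursors, had 481, 444 and 477 in MOLM-13 libraries, against 68.4, 34.4 and 57.4 in MOLM-14 libraries, and CLC, the Charcot-Leyden crystal protein, 16.2 to 31.6 against 0 to 1.26. The lines did not overlap at MS4A3, as at 60.0% of all tested genes, and at EPX and CLC the filter fixed this. The summed level of all 18 genes was 5953 to 7157 in MOLM-13 libraries and 2537 to 3179 in MOLM-14 libraries. Most of this sum came from members whose values are not printed here, and it includes the genes that passed through MOLM-13 alone.

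Neutrophil granule genes were split. PRTN3, the proteinase of azurophil granules, had 15904, 13805 and 16293 normalised counts in MOLM-13 libraries, against 1761, 2102 and 1136 in MOLM-14 libraries (3.24 ± 0.23, adjusted p = 2.79e-11, limma). CTSG, the cathepsin of the same granules, had 1660, 1428 and 1624 in MOLM-13 libraries, against 9882, 11078 and 7522 in MOLM-14 libraries (−2.58 ± 0.15, adjusted p = 1.39e-12). These proteases of 1 granule type were thus high in opposite lines, and AZU1, ELANE and MPO did not pass. Of 10 tested granulocyte markers, 5 (50.0%, against 23.7% of all genes) were higher in MOLM-13, among them BPI and the chemokine receptor CXCR2, and CTSG was lower. The median log2 difference of the 10 was 0.82, and it was 3.24 in SKM-1 against KG-1 and OCI-AML3. Line and library set cannot be told apart for these markers.

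Of 20 tested monocyte and macrophage markers, 6 were higher in MOLM-13, against 23.7% of all genes, and 8 (40.0%) lower, against 21.8% (median log2 difference 0.15 against 0.04). Their median was 2.39 in SKM-1 against KG-1 and OCI-AML3. CCR2, the receptor that draws monocytes to tissue, had 778, 850 and 825 normalised counts in MOLM-13 libraries, against 58.5, 50.1 and 62.6 in MOLM-14 libraries (3.82 ± 0.24). The costimulator CD86 (2.44), the receptor CSF1R (1.99), TYROBP (1.70) and lysozyme, LYZ (0.89), were higher as well. CX3CR1, the receptor of patrolling monocytes, had 30.5, 43.1 and 32.8 in MOLM-13 libraries, against 308, 282 and 326 in MOLM-14 libraries (−3.08 ± 0.30), and the scavenger receptors CD163 (none against 22.1 to 32.9) and CD36 (91.8 to 120 against 298 to 629) were lower too. CD163 passed the filter through MOLM-14 alone, which fixes its direction. CCR2 and CX3CR1 thus stood in opposite order in the sister lines. No monocyte type is read from these genes, and CD14 (at most 1.62 in any library) and FCGR3A (at most 1.54) were too low to test. ITGAM, CD68 and FCGR2A did not pass. After decitabine the differences were 1.90 for CCR2, 0.13 for CSF1R and −3.23 for CX3CR1. The change with decitabine itself passed for CCR2 (interaction adjusted p = 0.00253, limma) and not for CSF1R (0.178) or CX3CR1 (0.925), against 2.26% of all genes.

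Markers of other cell types were mostly too low to test. Of 18 erythroid, 17 megakaryocyte, 26 lymphoid, 13 epithelial and 16 stromal genes, 3, 5, 7, 5 and 6 were tested. SLC4A1 and the transferrin receptor TFRC were higher in MOLM-13, and the platelet genes ITGB3 (9.47 to 11.3 against 39.8 to 99.3) and THBS1 (2.54 to 4.10 against 44.8 to 231) were lower. Of the epithelial genes ESRP1 (0 to 0.494 against 82.4 to 151), KRT8, KRT18 and MUC1 were lower in MOLM-13. ESRP1 and THBS1 passed the filter through MOLM-14 alone, which fixes their direction. MUC1 overlapped between the lines and rested on 1 library, with 230, 89.3 and 124 against 196, 3262 and 195: its log2 difference was −1.86 (adjusted p = 0.0333, limma) with MOLM-14 replicate 2 and −0.51 (adjusted p = 0.432) without it. The summed level of the 13 epithelial genes was 200.2 to 346.8 in MOLM-13 libraries and 775 to 4044 in MOLM-14 libraries. That sum includes the MUC1 value of 3262 in MOLM-14 replicate 2, so it is no separate evidence.

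Of 30 tested growth factor and cytokine receptors, 12 (40.0%) were higher and 4 (13.3%) lower in MOLM-13 (median log2 difference 0.38), and of 27 adhesion genes, 10 (37.0%) were higher and 5 (18.5%) lower (median 0.27). Over all genes 23.7% were higher and 21.8% lower (median 0.04). In SKM-1 against KG-1 and OCI-AML3 the medians were 0.80 for the receptors and 0.62 for the adhesion genes. CD33, the sialic acid-binding receptor targeted by antibody drugs, had 2103, 2179 and 2346 normalised counts in MOLM-13 libraries, against 678, 615 and 582 in MOLM-14 libraries (1.82 ± 0.10, adjusted p = 3.9e-13, limma). NCAM1, the neural adhesion molecule CD56, had 329, 376 and 404 in MOLM-13 libraries, against 4498, 6908 and 4351 in MOLM-14 libraries (−3.80 ± 0.31, adjusted p = 3.02e-10). The integrin chain ITGAL (1.22) and the antiphagocytic signal CD47 (0.90) were higher, and IGF1R (431, 199 and 389 against 1577, 1527 and 1415), IL18R1 and ICAM1 were lower. IL7R, the interleukin-7 receptor, had 198, 201 and 217 in MOLM-13 libraries, against 52.7, 12.7 and 47.5 in MOLM-14 libraries.

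Of 14 tested chemokine and chemokine receptor genes, 7 were higher and 4 lower in MOLM-13. Of these 14, 2 were high enough to test through MOLM-13 alone and 3 through MOLM-14 alone, so the count is given without a share. Beside CCR2 and CXCR2, the higher ones included CCR1 (776, 846 and 754 against 225, 261 and 285), CCRL2, CXCL8 and CCL5 (1222, 1139 and 1157 against 501, 516 and 416). CXCR4, the receptor that holds leukaemia cells in the marrow, was lower in MOLM-13 by a log2 difference of −0.54 (681, 716 and 676 against 1096, 840 and 1099). CCR1, CCR2, CCRL2 and CX3CR1 all lie on chromosome 3, so genes of 1 chromosome differed in both directions.

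Antigen presentation genes were called in both directions. The classical heavy chains HLA-B (30751, 28267 and 25229 against 6946, 7296 and 6914; 1.99 ± 0.18) and HLA-C (10155, 9630 and 10391 against 3288, 3600 and 2567; 1.69 ± 0.21) were higher in MOLM-13. The light chain gene B2M was higher by 0.75. The nonclassical HLA-F (5.30, 10.6 and 4.24 in MOLM-13 libraries, 102, 74.4 and 110 in MOLM-14 libraries) and HLA-G (2.22, 4.53 and 3.93 against 61.5, 71.6 and 76.9) were lower, as were the immunoproteasome gene PSMB9 (−1.24) and the chaperone gene CALR (−0.89). HLA-G passed the filter through MOLM-14 alone, which fixes its direction. HLA-E, TAP1 and PSMB8 did not pass. Reads of class I genes can map to several of them, so values of single HLA genes are uncertain. In all, 5 of 20 class I genes were higher and 6 lower, and of 11 class II genes 3 and 2. Interferon-stimulated genes showed no common direction, with 12 (31.6%) higher and 11 (28.9%) lower of 38 (median −0.02).

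Of 23 tested p53 targets, 14 (60.9%) were higher in MOLM-13, against 23.7% of all genes, and 1 (4.35%), POLK, was lower, against 21.8% (median log2 difference 0.62, against 0.04 over all genes). Their median was −0.18 in SKM-1 against KG-1 and OCI-AML3. RRM2B, a ribonucleotide reductase subunit, had 6625, 6308 and 5636 normalised counts in MOLM-13 libraries, against 2127, 1947 and 1703 in MOLM-14 libraries, and the death gene BBC3 661, 574 and 569 against 191, 239 and 161. CDKN1A, the p53 target that halts the cell cycle, did not pass (3510, 3306 and 3410 against 3537, 3187 and 2955), and MDM2 differed by 0.26. Of 23 apoptosis regulators, 11 (47.8%) were higher and 2 (8.70%) lower (median 0.40, and 0.29 in SKM-1 against KG-1 and OCI-AML3). The higher ones held both killers such as BAX (1.40) and BAK1 (1.24) and protectors such as BCL2 (10400, 9238 and 8965 against 5105, 4833 and 6695; 0.79) and MCL1 (0.30). HRK and BCL2A1 were lower, but the BCL2A1 call (−1.42, adjusted p = 0.0298, limma) was lost when any MOLM-13 library or MOLM-14 replicate 1 or 2 was left out.

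Of 27 glycolysis and hypoxia genes, 15 (55.6%) were higher and 2 (7.41%) lower in MOLM-13, against 23.7% and 21.8% of all genes (median 0.33 against 0.04). NDRG1, a hypoxia-induced gene, had 2636, 2842 and 2654 normalised counts in MOLM-13 libraries, against 506, 296 and 376 in MOLM-14 libraries, while the hypoxia-induced peptide gene ADM had 1.17, 4.34 and 2.97 against 50.8, 38.0 and 72.2. ADM passed the filter through MOLM-14 alone, which fixes its direction. LDHA (0.82), HK2 (0.85) and ENO1 (1.03) were higher, and GAPDH did not pass. Of 30 respiratory chain subunits, 15 (50.0%) were higher and 2 (6.67%) lower (median 0.33). In SKM-1 against KG-1 and OCI-AML3 the medians were 0.15 for the glycolysis and hypoxia genes and 0.42 for the subunits. Both of those lists, and the p53 list, hold 2 or 3 genes of chromosome 8, and among the leading genes NDRG1, BNIP3L, RRM2B, TP53INP1, COX6C and CYC1 lie there. Genes of DNA replication (10 higher and 8 lower of 32, median 0.08), mitosis (6 and 8 of 27, median −0.04) and cytosolic ribosomal proteins (12 and 10 of 50, median −0.03) were split about evenly.

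Lists tied to the drug of the study did not set the lines apart in one direction. Of 13 genes of decitabine uptake and metabolism, 4 were higher and 3 lower, of 18 genes of the DNA methylation machinery 4 and 6, of 14 genes known as silenced by promoter methylation in tumours 4 and 3, and of 13 imprinted genes 4 and 4. In these 4 lists the share called was 50.0% to 61.5%, against 45.4% over all genes and 47.7% of protein-coding genes.

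The differences were uneven along the genome. Protein-coding genes of chromosome 8 were higher in MOLM-13 almost throughout: the median log2 difference of its 416 genes was 0.92, against 0.07 over all 12303 placed genes, and 88.0% were above 0. On this chromosome 293 genes (70.4%) were called higher and 26 (6.25%) lower, against 26.5% and 21.2% over all placed genes. Relative to the other chromosomes, the median gene of chromosome 8 stood 0.45, 0.44 and 0.44 above the mean of the 6 libraries in MOLM-13 libraries and at −0.46, −0.45 and −0.40 in MOLM-14 libraries, so all 6 libraries carried the difference. The median was 0.90 between the decitabine-treated libraries and −0.29 in SKM-1 against KG-1 and OCI-AML3.

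Against the other lines, chromosome 8 stood high in MOLM-13 and in KG-1. MOLM-13 stood above OCI-AML3 and above SKM-1 by a median of 0.70 each, while MOLM-14 stood at −0.20 and −0.16 against the same lines. KG-1 was level with MOLM-13 (KG-1 minus MOLM-13, −0.07) and above MOLM-14 (0.81), OCI-AML3 (0.69) and SKM-1 (0.65). DNA copy number was not measured in these data, and its part in the result was not tested. ENPP2, which had the largest difference of the named protein-coding genes, lies on chromosome 8 and differed by 12.60. CRISPLD1, also on chromosome 8, was near 0 in MOLM-13 (0.548 to 1.01) and at 600 to 788 in MOLM-14.

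**Figure D4:**
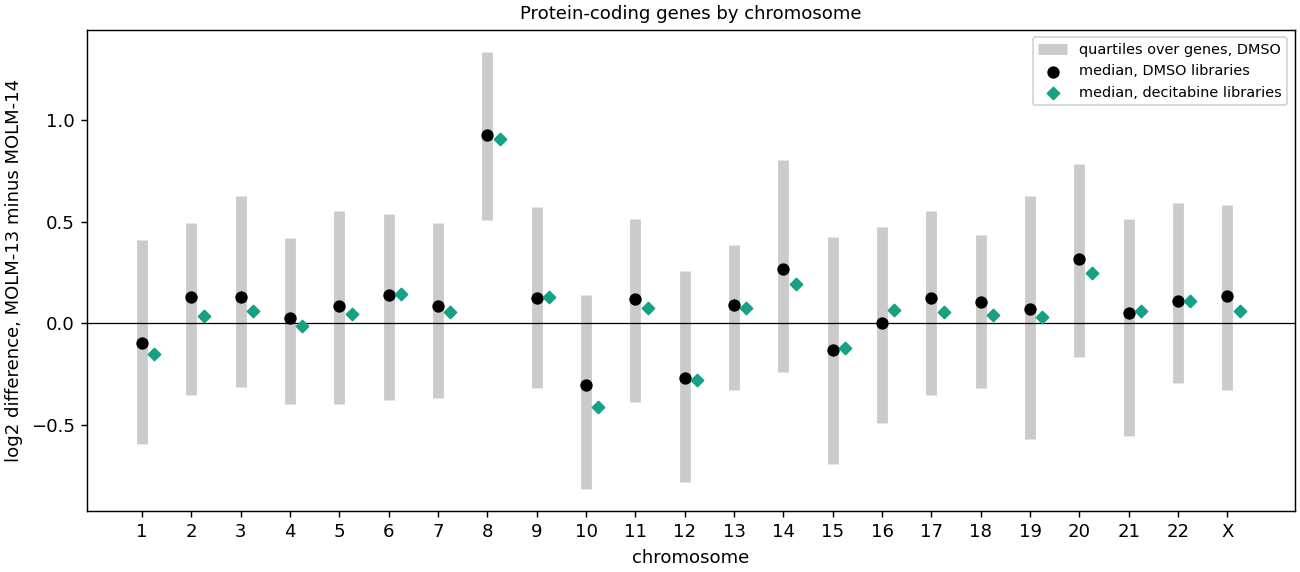
Log2 difference of protein-coding genes, MOLM-13 minus MOLM-14, by chromosome: black points are medians and grey bars quartiles over genes in DMSO libraries, green diamonds are medians in decitabine libraries. Chromosome 8 has a median of 0.92, chromosomes 14 and 20 stand at 0.27 and 0.32, and chromosomes 10 and 12 at −0.31 and −0.27.

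Parts of other chromosomes shifted as blocks. With the tested protein-coding genes of a chromosome cut into 8 blocks of equal number in order of position, all 8 blocks of chromosome 8 had medians of 0.64 to 1.29. On chromosome 14, 2 neighbouring blocks from SYNE2 to GTF2A1 had medians of 1.08 and 0.86, while the other 6 lay between −0.02 and 0.37. On chromosome 20, the first 3 blocks, from C20orf96 to COMMD7, had medians of 0.65 to 0.85, and the rest lay between −0.04 and 0.31. Chromosome 10 was lower from RASSF4 to its end (−0.50 to −0.20 in 6 blocks), and chromosome 12 from DDIT3 to its end (−0.68 to −0.34 in 4 blocks). The decitabine-treated libraries gave each of these blocks the same sign, with medians of 0.95 and 0.90 for the chromosome 14 blocks and 0.65 to 0.82 for the chromosome 20 blocks. In SKM-1 against KG-1 and OCI-AML3, whole-chromosome medians were 0.10, −0.58, −0.77 and 0.04 for chromosomes 10, 12, 14 and 20. Chromosome 12 thus went the same way as in the pair (−0.27) and by more, and chromosome 14 the opposite way.

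**Figure D5:**
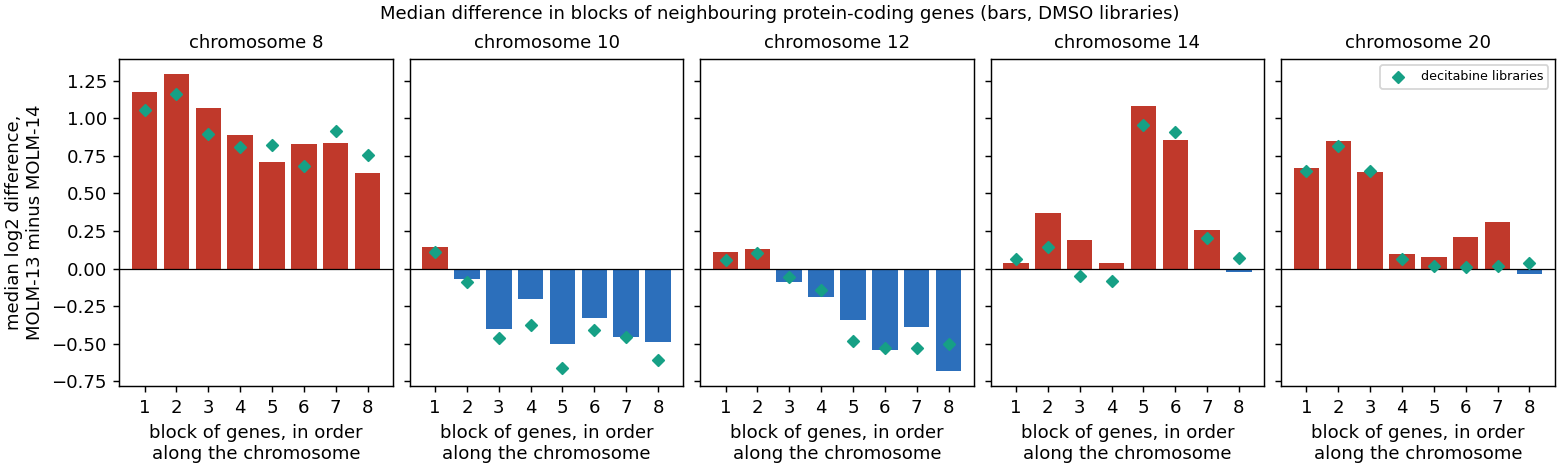
Median log2 difference, MOLM-13 minus MOLM-14, in 8 blocks of neighbouring protein-coding genes along chromosomes 8, 10, 12, 14 and 20: bars are DMSO libraries and green diamonds decitabine libraries. Chromosome 8 is raised in every block, chromosome 14 in blocks 5 and 6 and chromosome 20 in blocks 1 to 3, and the later blocks of chromosomes 10 and 12 are below 0.

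Features that follow the library set, at least in part, were visible too. Mitochondrial genes took 13.5 ± 0.877% of the total value in MOLM-13 libraries and 8.66 ± 0.535% in MOLM-14 libraries (SD, n = 3 each; exact two-sided permutation test, p = 0.1, the smallest that 3 against 3 allows). Nearly all of it was mitochondrial ribosomal RNA, at 12.1% and 7.39%, and the mitochondrial mRNAs took 1.48% and 1.25%. With the decitabine libraries included, MOLM-13 and SKM-1 had mitochondrial shares of 12.5% to 19.1% and those of the other 3 lines 8.06% to 15.6%. Processed pseudogenes took 0.363% in MOLM-13 and 0.646% in MOLM-14 libraries, and 211 of 486 tested ones were lower and 51 higher in MOLM-13 (median −1.26). The small nuclear RNA gene RNU2-2P had 744, 620 and 745 normalised counts in MOLM-13 libraries and none in MOLM-14, and was likewise present in SKM-1 and absent from KG-1 and OCI-AML3 libraries. HMGB1P6, the pseudogene with the largest difference above 0, had 6143, 1545 and 123 in MOLM-13 libraries, against 2.52, 0 and 2.26 in MOLM-14 libraries, and differed by just 0.23 after decitabine.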

How the data were processed

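The deposited table holds 1 column per library of estimated counts per gene that the authors divided by DESeq2 normalization factors, per the name of the table, a signal that is not whole and not on a log scale. Salmon 1.2.1, STAR, featureCounts, DESeq2, limma and hg38 are named by the submitters' processing notes, with no role or order; the annotation release, the strand setting and any filter are not given in the sources used here. Total RNA was depleted of ribosomal RNA and sequenced from stranded libraries, per the labels' protocols. Columns of MOLM-14, KG-1 and OCI-AML3 were matched to labels by line, treatment letter and replicate number. Of the table's columns, 12 match no labelled sample and were not used; 12 labelled libraries of other lines were not analysed here. Values were not recoverable as whole reads (44.4% to 68.5% of low values within 0.02 of a whole multiple), so no count test was run, and read numbers are estimates.

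Genes with at least 10 normalised counts in at least 3 of the 6 libraries were tested with limma 3.58.1 (R 4.3.3; trend and robust) on log2(value + 1) over all 30 libraries with 10 group means, 20 residual degrees of freedom and Benjamini-Hochberg adjustment over 16211 genes. Genes under 10 in every library of one line passed this filter through the other line alone. Their direction was fixed by that, and their p-values do not support it. Gene types and positions came from GENCODE 29, which matched 58064 of 60240 genes. The fit was tested on simulated data with known changes. Depth limits the low values: 3 reads over the line's libraries were worth 0.319 normalised counts in MOLM-13 and 1.69 in MOLM-14. Intervals and floors cover counting error only. The 12 genes of each direction named first are the protein-coding genes with the largest log2 difference among called genes that do not overlap and average at least 50; each list gives its 4 largest calls, and other genes were named after their values were seen. Some genes that these rules take in are not reported here. The lines and the gene lists were chosen with earlier results of these data known. Replicate numbers did not pair MOLM-13 with MOLM-14 libraries: same-numbered ones correlated with r of 0.0249, −0.00392 and −0.00227. That check cannot exclude a batch shared by number within a library set. Replicate 2 was the shallowest in each group of MOLM-14, KG-1 and OCI-AML3. Alternatives covered the pseudocount, filters, scaling, the libraries fitted, library weights, a replicate block and each library left out.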

Additional observations from a re-analysis of the deposited data

How the results depend on the processing

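Between 6064 genes (a filter at 50) and 9655 (library weights) were called under the alternatives, and no gene called in both a main and an alternative fit changed direction. Leaving out each library gave 6233 to 7121 calls. Quantile normalization moved the median of all genes to 0.11 and the split to 4377 higher and 3509 lower, while upper quartile scaling gave 3558 and 3703. A replicate block called 7708 genes, 7323 of them shared, and it changed no call of the genes named in the lists. The numbers did not pair MOLM-13 with MOLM-14 libraries. Genes at least 2-fold lower in MOLM-13 numbered 1352 with the filter at 50 and 1390 among protein-coding genes. Of 216 genes checked, 197 kept their call in every setting, 19 lost it in at least 1, and 0 reversed; the 30 genes with the largest differences kept theirs.

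Counts that rest on a limit moved with it. Genes on in MOLM-13 and off in MOLM-14 numbered 105 with the on limit at 20, 23 at 100, 20 with at most 1 read in the off line and 16 with at most 0.5 of a normalised count. Genes on in MOLM-14 and off in MOLM-13 numbered 147 with the limit at 20 and 46 at 100. Genes near 0 in MOLM-13 alone numbered 37 with a mean under 5, 130 under 3 reads of the shallowest library and 10 with 100 in the other lines. For MOLM-14 they numbered 5 and 40, and 1 to 5 with each library left out. The mitochondrial difference was 4.89 percentage points for all mitochondrial genes and 0.229 for the mRNAs. Quantile normalization gave medians of 0.91 for chromosome 8, −0.23 for chromosome 12 and 0.32 for chromosome 14, and the filter at 50 gave −0.34 for chromosome 10. Leaving out each library gave 0.86 to 0.95 for chromosome 8, −0.37 to −0.30 for chromosome 10 and 0.31 to 0.34 for chromosome 20. The cause of these shifts was not tested beyond what each limit sets by construction. Depth limits what absence means in MOLM-14, above all in replicate 2.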

Other observations

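Several lists held calls in both directions; over all genes 23.7% were higher and 21.8% lower in MOLM-13. Of 26 genes of the integrated stress response, 5 were higher and 6 lower in MOLM-13, of 23 cholesterol synthesis genes 5 and 9, of 18 glutathione, aldehyde and xenobiotic genes 5 and 5, and of 18 inflammatory NF-kB targets 8 and 5. Of 29 immediate early genes 7 were higher, 4 lower and 18 not called. Of 17 immune checkpoint genes, 7 (41.2%) were higher and 2 (11.8%) lower (median log2 difference 0.67 against 0.04 over all genes), and 7 dendritic cell markers gave 2 and 2. Of 6 tested fibroblast and endothelial genes 3 were higher and 2 lower, of 17 G1 cyclin and inhibitor genes 6 and 3, of 13 mitochondrially encoded mRNAs 5 and 1, and of 15 structured noncoding RNAs 7 and 1. The share called was 37.9% of the immediate early genes and 42.3% of the stress response genes, under the 45.4% of all genes, and 46.2% to 83.3% of the others.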
